A study of Mus musculus with 6 samples.

Results

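Transcripts of 10 proteins that coat, enlarge, build or digest lipid droplets were examined in mouse liver. They were chosen by gene name, by a rule that used no measured value, but with earlier results of these data known. They are the perilipins Plin2, Plin4 and Plin5, the CIDE proteins Cidea, Cideb and Cidec, the FIT proteins Fitm1 and Fitm2, and adipose triglyceride lipase, Pnpla2, with its inhibitor G0s2. All 10 were found among 48699 deposited genes, and 9 passed the filter on low values described below; Cidea did not. The libraries came from c57bl/6 males aged 10 to 12 weeks that had been without food overnight, for 8 to 10 hours. Column headers of the deposited values carry the word chow for every library. The 3 controls, Fxrfl/fl Shpfl/fl, carry floxed alleles of both nuclear receptor genes (Nr1h4 encodes FXR, Nr0b2 encodes SHP), and the 3 double knockouts, labelled hepatocyte-specific fxr-/- shp-/-, lack both in hepatocytes. The sources used here do not name the Cre driver, and whole liver was taken, so other liver cells keep both genes.

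A lipid droplet is a core of triglyceride and sterol ester under a single layer of phospholipid, and its surface proteins decide how it grows and how it is used. Hepatocytes build droplets in fasting, when fatty acids arrive from fat tissue faster than they are burned. FIT proteins act at the endoplasmic reticulum as droplets form, CIDE proteins move lipid between droplets or onto lipoproteins, perilipins coat the surface and limit access of lipases, and PNPLA2 releases the first fatty acid from triglyceride. FXR is the bile acid receptor, and SHP, one of its targets, represses transcription.

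Values are FPKM, which divides the fragments of a gene by its length and by the library's total, so genes can be compared for level within a library. Nr0b2 lay between 14.7 and 18.7 FPKM in controls and between 0.0734 and 0.293 FPKM in knockouts, and Nr1h4 between 59.8 and 71.8 against 15.5 to 22.0 FPKM. Steps in the low values put the depth of each library between about 13190000 and 14140000 mapped fragments. Control replicate 3 stood apart: over log2 values its correlation with the other controls was 0.952 and 0.955, across genes, against 0.983 between those 2, so results that rest on it are also given without it. Of hepatocyte markers, 6 of 6 were present and their sum ran from 57657 to 69529 FPKM in controls and from 30640 to 51585 FPKM in knockouts. By replicate, the 9 Kupffer cell and macrophage markers summed to 71.8, 58.7 and 159 FPKM (controls) against 156, 312 and 151 FPKM (knockouts). Only control replicate 3 reached the knockout range. All 9 had a positive log2 difference of knockout minus control, with a median of 0.79, against -0.0060 over all tested genes. The groups were apart for 1 of the 9, Mpeg1. Mpeg1 alone of these was called by the test described below (higher, limma adjusted p = 0.0490), as were 0.169% of all tested genes. It measured 5.12, 7.12 and 17.7 FPKM (controls) against 58.2, 73.5 and 57.3 FPKM (knockouts). The sum of 6 cholangiocyte markers ran from 33.8 to 44.2 and from 59.1 to 64.0 FPKM. Hepatocyte and cholangiocyte sums did not overlap between the groups, but of the hepatocyte markers only Alb, the most abundant, had groups apart, and the other 5 overlapped. Most of the cholangiocyte sum was Spp1, at 31.1, 34.3 and 42.6 FPKM (controls) against 55.2, 59.5 and 60.9 FPKM (knockouts). Spp1 and Epcam, the latter at 0.477 to 1.29 FPKM, had groups apart, and Krt19, Krt7, Sox9 and Cftr overlapped. The part of these cell types in the results below was not tested. In bulk liver, fewer cells of a type and less RNA per cell cannot be told apart.

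No droplet transcript passed the test between the groups, and most had a lower mean in the double knockouts. Of the 9 tested, 8 had a negative fold change, as did 50.8% of all tested genes. G0s2 had the steepest mean difference, 2.74-fold, and Pnpla2, Cidec, Plin4 and Plin5 lay between 1.46-fold and 2.31-fold below the controls. Plin2, Cideb and the FIT genes were within 1.21-fold of control. The test was limma on log2(FPKM + 1) with Benjamini-Hochberg adjustment over 11810 genes, where 0.313% were called in either direction, 0.169% higher and 0.144% lower. It called 0 of the 9. At an unadjusted limma p under 0.05, 3 of the 9 were lower (G0s2, Pnpla2 and Cidec) and 0 higher, against 7.98% and 6.97% of all tested genes. Control and knockout values did not overlap for 3, G0s2, Pnpla2 and Cideb, all lower, against 11.6% of all tested genes.

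The order of levels was steep. Plin2 was the most abundant in each of the 6 libraries, with 35.0% to 50.8% of the summed FPKM of the 10 genes. Cideb came next in each library, followed in the controls by G0s2, Pnpla2, Plin5, Fitm1, Fitm2, Cidec, Plin4 and Cidea by mean level. G0s2 exceeded Pnpla2 in 3 of 3 controls and in 1 of 3 knockouts. Pnpla2 exceeded Plin5 in 5 of 6 libraries and Fitm1 exceeded Fitm2 in 5 of 6, so the FIT pair was close in level. The other neighbours kept their order in 6 of 6.

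**Figure D1:**
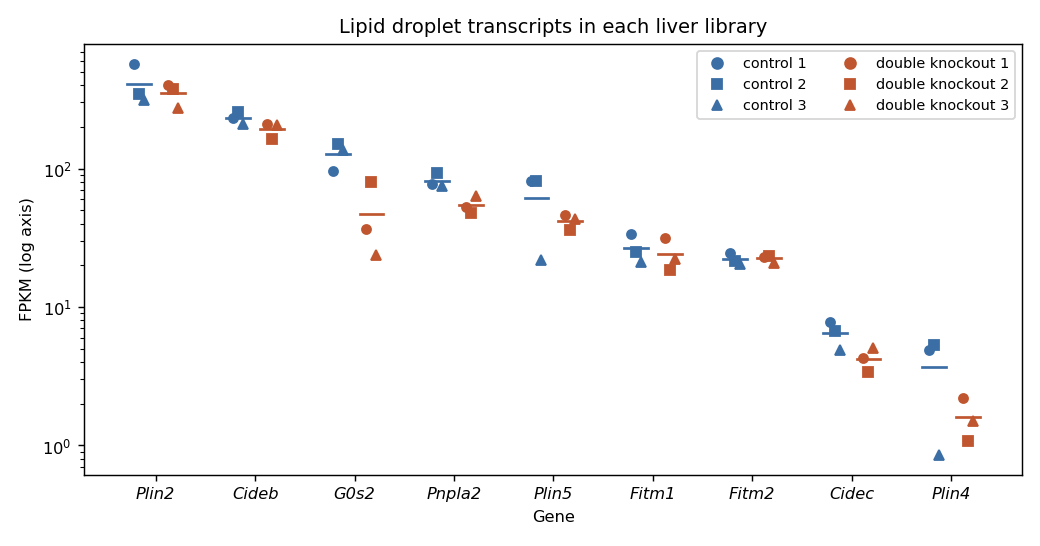
FPKM on a log axis of the 9 tested genes in each library, ordered by control mean; blue points are the 3 controls, red points the 3 double knockouts, shapes give the replicate number, and bars mark group means. The 3 G0s2 and the 3 Pnpla2 values of the knockouts lie below the 3 control values, and control replicate 3 lies far below the other controls for Plin5 and Plin4.

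The lipase and its inhibitor were both lower in each knockout library than in any control. Pnpla2 (ENSMUSG00000025509.15, GRCm38 chromosome 7, 141455198 to 141460743, plus strand) encodes adipose triglyceride lipase. It measured 77.6, 93.6 and 74.2 FPKM (controls) against 52.5, 48.0 and 63.1 FPKM (knockouts). The lowest control was above the highest knockout, and the means were 81.8 ± 10.3 and 54.5 ± 7.78 FPKM (SD, n = 3 each). On the log2(FPKM + 1) scale the difference was -0.58 (SE 0.17, 95% interval -0.97 to -0.19; limma adjusted p = 0.201, unadjusted 0.00963).

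G0s2 (ENSMUSG00000009633.3, chromosome 1, 193272161 to 193273217, minus strand), a small protein that binds the lipase and blocks it, measured 96.8, 152 and 137 FPKM in the controls. In the knockouts it measured 36.9, 79.8 and 23.7 FPKM. Knockout replicate 2 came nearest to the controls, and replicate 3 was lowest. The means were 128 ± 28.3 and 46.8 ± 29.3 FPKM (SD, n = 3 each), a log2 difference of -1.59 (SE 0.41, 95% interval -2.55 to -0.63; limma adjusted p = 0.182, unadjusted 0.00555). The authors' deposited table gave q = 0.599 for G0s2 and q = 0.182 for Pnpla2.

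Both genes passed the threshold under 1 alternative, in which limma weighted each library by its scatter: Pnpla2 had a log2 difference of -0.67 (limma adjusted p = 0.0434) and G0s2 of -1.66 (limma adjusted p = 0.0476). That fit gave control replicate 3 a weight of 0.232 and the other libraries 0.981 to 2.13. Over all 11810 tested genes it called 326 higher and 237 lower, against 20 and 17 without weights. Over all alternatives the limma adjusted p ran from 0.0434 to 0.539 for Pnpla2 and from 0.0476 to 0.502 for G0s2, and their direction held in all 15. The gene body of G0s2 lies within that of Lamb3, on the other strand, and shares 0 exonic bases with it. Lamb3, a laminin subunit, was listed at 0.665 to 1.95 FPKM over the 6 libraries. The sources used here do not say whether counting used strand.

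The balance of the pair was read within each library, where the scaling of FPKM cancels. The ratio of G0s2 to Pnpla2 was 1.25, 1.62 and 1.84 in the controls and 0.703, 1.66 and 0.375 in the knockouts. Knockout replicate 2 lay inside the control range, so the groups overlapped; the mean difference was 2.04-fold (two-sided exact permutation p = 0.3, adjusted over 6 ratios 0.6, higher in the controls). With 3 against 3 libraries no such p can go below 0.1. Abhd5, the co-activator of the lipase, measured 14.2, 12.6 and 18.1 FPKM (controls) against 13.6, 13.3 and 12.9 FPKM (knockouts). Its ratio to Pnpla2 was 0.183, 0.134 and 0.244 against 0.259, 0.276 and 0.204, again with overlap (1.34-fold higher in knockouts, exact permutation p = 0.2, adjusted 0.6).

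**Figure D2:**
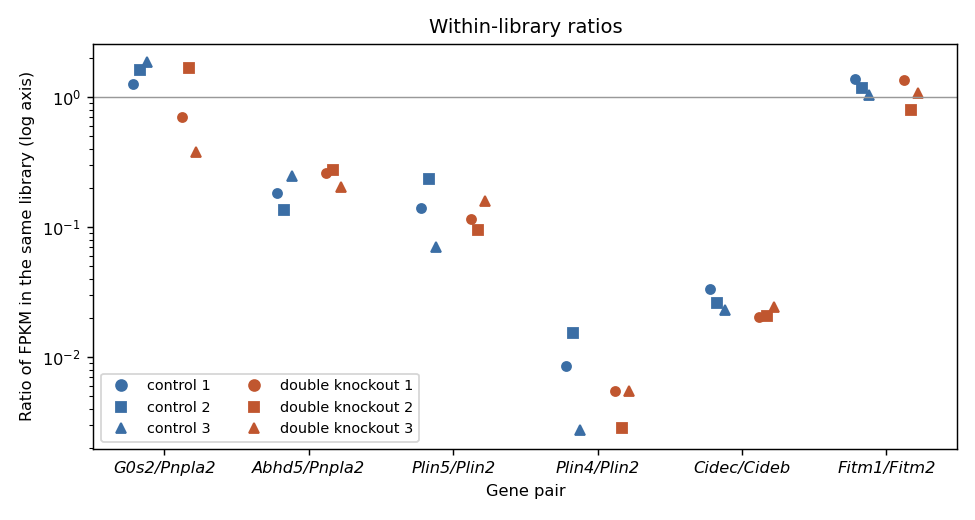
Ratio of the FPKM of gene pairs in the same library, on a log axis with a grey line at 1; blue points are controls, red points double knockouts, shapes the replicate number. The ratio of G0s2 to Pnpla2 is below 1 in knockout replicates 1 and 3 (0.703 and 0.375), and in each of the 6 pairs the groups overlap.

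Sequences upstream of 5 members are shown because 3 of them, G0s2, Pnpla2 and Cideb, are those whose groups did not overlap, and the other two, Plin5 and Plin4, passed the test only without control replicate 3. They are the 250 bases before the RefSeq transcription start (GRCm38.p6, 5′ to 3′ on the gene's strand; for Plin5 the first of 2 starts). Capitals mark the GC-box core GGGCGG or its reverse CCGCCC, and the nuclear receptor half-site AGGTCA or its reverse TGACCT.
G0s2, chr1:193273189-193273438, minus strand: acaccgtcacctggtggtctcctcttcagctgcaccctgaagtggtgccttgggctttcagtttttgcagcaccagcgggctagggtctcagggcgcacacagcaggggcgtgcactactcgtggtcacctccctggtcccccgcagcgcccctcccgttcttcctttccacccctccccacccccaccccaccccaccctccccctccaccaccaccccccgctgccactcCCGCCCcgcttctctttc
Pnpla2, chr7:141454938-141455187, plus strand: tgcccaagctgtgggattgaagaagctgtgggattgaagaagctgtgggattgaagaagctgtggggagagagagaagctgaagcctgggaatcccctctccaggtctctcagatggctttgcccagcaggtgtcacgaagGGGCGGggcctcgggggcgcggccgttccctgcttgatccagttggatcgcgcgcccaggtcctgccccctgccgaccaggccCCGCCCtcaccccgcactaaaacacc
Cideb, chr14:55758425-55758674, minus strand: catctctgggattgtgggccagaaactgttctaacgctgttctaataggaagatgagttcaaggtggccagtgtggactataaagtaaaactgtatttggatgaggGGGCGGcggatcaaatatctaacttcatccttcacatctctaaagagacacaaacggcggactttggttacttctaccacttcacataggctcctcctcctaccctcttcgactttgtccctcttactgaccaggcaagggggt
Plin5, chr17:56117549-56117798, minus strand: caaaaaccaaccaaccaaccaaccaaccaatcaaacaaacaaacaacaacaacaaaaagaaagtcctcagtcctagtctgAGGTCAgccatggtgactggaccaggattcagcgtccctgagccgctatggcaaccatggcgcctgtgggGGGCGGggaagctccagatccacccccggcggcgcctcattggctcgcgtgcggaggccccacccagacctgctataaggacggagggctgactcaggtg
Plin4, chr17:56109783-56110032, minus strand: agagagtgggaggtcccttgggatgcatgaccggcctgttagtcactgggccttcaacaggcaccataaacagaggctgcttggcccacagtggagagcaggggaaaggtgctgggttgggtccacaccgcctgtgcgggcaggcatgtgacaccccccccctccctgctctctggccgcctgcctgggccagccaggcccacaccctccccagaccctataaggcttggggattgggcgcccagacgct

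Of these 5 windows, 4 hold a GC-box core, G0s2 at position -18, Pnpla2 at -109 and -26, Cideb at -144 and Plin5 at -100, counted to the first base of the match from the start; the Plin4 window holds neither the core nor the half-site. Of the 11 windows of 9 members in the table, 6 hold it on either strand, against 32.7% of 32851 windows of the same length over all genes. The half-site is in 2 of the 11, Plin2 (-218) and Plin5 (-170), against 14.0% of all windows. The direct repeat AGGTCANAGGTCA, the form that PPAR factors are known to bind, and the inverted repeat AGGTCANTGACCT, the form FXR is known to bind, are in 0 of the 11, and in 0.0335% and 0.00609% of all windows; the inverted repeat reads the same on both strands, and each repeat holds the half-site. GC content of the 5 windows was 67.2% for G0s2, 63.2% for Pnpla2, 47.2% for Cideb, 58.0% for Plin5 and 65.2% for Plin4, against a median of 52.4%.

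Among the perilipins, the abundant Plin2 had overlapping values, while Plin5 and Plin4 were lower in each knockout than in control replicates 1 and 2 and higher than in control replicate 3. Plin2 (ENSMUSG00000028494.12, chromosome 4, 86648386 to 86670060), the main droplet coat of hepatocytes, measured 573, 346 and 311 FPKM (controls) against 402, 378 and 273 FPKM (knockouts). The ranges overlapped, and control replicate 1 was the highest of the 6. The log2 difference was -0.19 (SE 0.28, 95% interval -0.83 to 0.45; limma adjusted p = 0.774). It was 0.078 without control replicate 1 and 0.071 after quantile normalization, so its sign was not stable.

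Plin5 (ENSMUSG00000011305.11, chromosome 17, 56111601 to 56117596), which tethers droplets to mitochondria and holds the lipase in check, measured 80.7, 80.8 and 21.8 FPKM in controls. In the knockouts it measured 46.1, 36.0 and 43.1 FPKM, below control replicates 1 and 2 and above control replicate 3. With all libraries the log2 difference was -0.33 (SE 0.47, 95% interval -1.43 to 0.77; limma adjusted p = 0.771). Without control replicate 3 it was -0.94 (SE 0.15, 95% interval -1.29 to -0.60; limma adjusted p = 0.0378), a 1.94-fold lower mean. The limma adjusted p over all 15 alternatives ran from 0.0378 to 0.991.

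Plin4 (ENSMUSG00000002831.13, chromosome 17, 56100591 to 56109803), a perilipin with a long repeat region that is abundant in fat and muscle, showed the same arrangement at a low level. It measured 4.92, 5.33 and 0.851 FPKM (controls) against 2.21, 1.08 and 1.50 FPKM (knockouts). The log2 difference was -0.68 (SE 0.46; limma adjusted p = 0.513), and without control replicate 3 it was -1.26 (SE 0.21; limma adjusted p = 0.0398), 3.20-fold in the means. Over the alternatives the limma adjusted p ran from 0.0398 to 0.811. Plin4 and Plin5 are neighbours on the same strand, 1797 bases apart. Their log2 levels correlated at 0.96 over the 6 libraries, a description over points that share library and depth.

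The arrangement seen in this pair, with control replicates 1 and 2 above every knockout and control replicate 3 below every knockout, occurred in 2 of the 9 members and in 6.04% of all tested genes. Control replicate 3 was the lowest of the controls for 8 of the 9 members, all but G0s2, against 40.2% of all tested genes. Without that library limma called 2 of the 9 lower and 0 higher, against 0.746% and 1.31% of 11800 genes. Plin4 and Plin5 were called only when that library was left out, and Pnpla2 and G0s2 only with library weights.

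**Figure D3:**
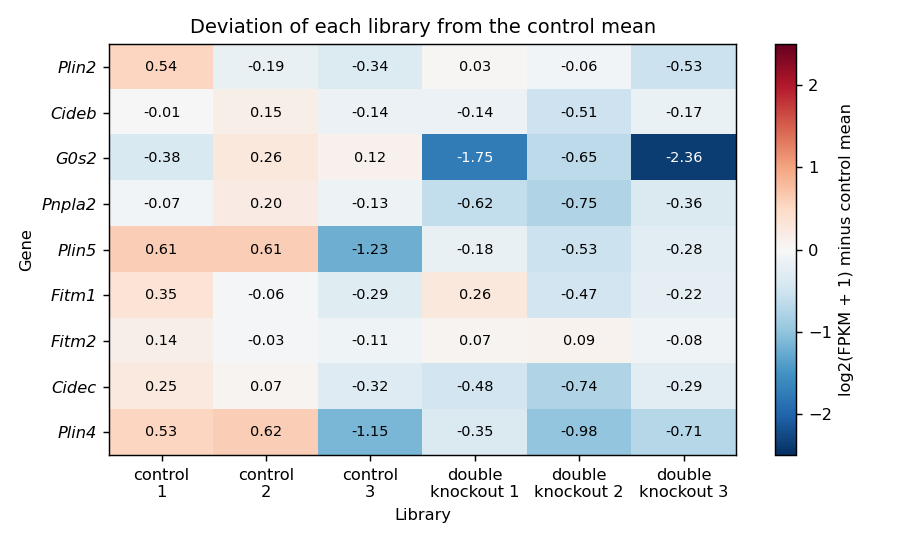
Difference of each library from the control mean on the log2(FPKM + 1) scale for the 9 tested genes (rows) in the 6 libraries (columns); blue is lower, red higher, and the number is the value. Control replicate 3 is at -1.23 for Plin5 and -1.15 for Plin4, and double knockout replicates 1 and 3 are at -1.75 and -2.36 for G0s2.

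**Figure D4:**
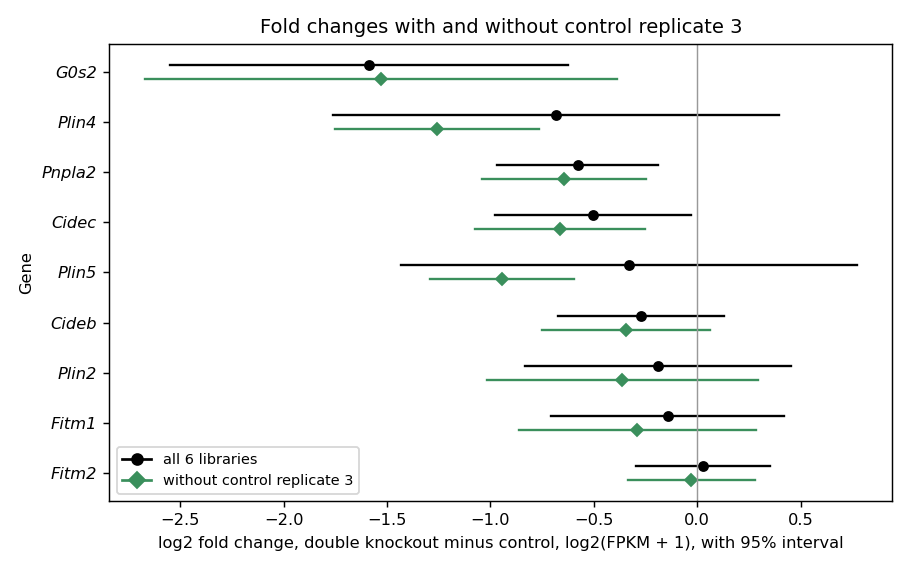
The log2 difference of double knockout minus control for the 9 tested genes with its 95% interval from limma, with all 6 libraries (black circles) and without control replicate 3 (green diamonds). Leaving out that library moves Plin5 from -0.33 to -0.94 and Plin4 from -0.68 to -1.26, and narrows both intervals.

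Of the CIDE genes, the hepatocyte form was abundant, the form of fatty liver was low, and the form of brown fat was barely detected. Cideb (ENSMUSG00000022219.9, chromosome 14, 55754050 to 55758458), which loads lipid onto very low density lipoprotein, measured 230, 258 and 211 FPKM (controls) against 210, 163 and 207 FPKM (knockouts). The groups did not overlap, though the lowest control, 210.8, and the highest knockout, 210.1, nearly met. The log2 difference was -0.27 (SE 0.17, 95% interval -0.68 to 0.13; limma adjusted p = 0.483), and -0.049 after quantile normalization. Of the exonic bases of Cideb, 76.3% are shared with Nop9 on the other strand, a gene listed at 5.26 to 6.72 FPKM, far below Cideb.

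Cidec (ENSMUSG00000030278.11, chromosome 6, 113424634 to 113435760), also known as Fsp27, fuses small droplets into large ones. It measured 7.74, 6.73 and 4.89 FPKM (controls) against 4.26, 3.39 and 5.02 FPKM (knockouts), so knockout replicate 3 lay above control replicate 3. The log2 difference was -0.51 (SE 0.20, 95% interval -0.98 to -0.03; limma adjusted p = 0.313, unadjusted 0.0397). The limma adjusted p ran from 0.0646 to 0.674 over the alternatives, none past the threshold. The ratio of Cidec to Cideb was 0.0336, 0.0261 and 0.0232 in controls and 0.0203, 0.0209 and 0.0243 in knockouts (exact permutation p = 0.2, adjusted 0.6).

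Cidea (ENSMUSG00000024526.8, chromosome 18, 67343604 to 67367785), the form of brown fat, was listed at 0.0737, 0.0695 and 0.143 FPKM (controls) against 0, 0.0708 and 0 FPKM (knockouts). By the worth of a fragment in each library these are about 1, 1, 2, 0, 1 and 0 fragments, too few to compare the groups. Ucp1 and Dio2, which with Cidea and Prdm16 made up the brown fat markers, were at 0 in each library. The 9 adipocyte markers summed to 18.5 to 35.0 FPKM in controls and 32.3 to 46.2 FPKM in knockouts. The ranges overlapped, and their part in the values of Plin4 and Cidec was not tested. Adipoq, which defines adipocytes, lay between 0.129 and 2.91 FPKM.

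The FIT genes, which help droplets bud from the endoplasmic reticulum, had overlapping values in the groups. Fitm2 (ENSMUSG00000048486.6, chromosome 2, 163466379 to 163472629), the widely expressed form, measured 24.4, 21.5 and 20.3 FPKM (controls) against 23.1, 23.5 and 20.8 FPKM (knockouts). The ranges overlapped, and its log2 difference of 0.027 had the narrowest interval of the 9, -0.30 to 0.35 (limma adjusted p = 0.944). Without control replicate 3 its difference was -0.027. Fitm1 (ENSMUSG00000022215.5, chromosome 14, 55575617 to 55576954), best known in skeletal muscle, measured 33.5, 25.0 and 21.1 FPKM (controls) against 31.4, 18.5 and 22.2 FPKM (knockouts). Its log2 difference was -0.14 (95% interval -0.71 to 0.42; limma adjusted p = 0.810). It turned to 0.032 with control replicate 1 left out and 0.021 without double knockout replicate 2. Of the 6 other muscle markers, Ckm, Myh4 and Myh1 were at 0 in each library and the rest reached at most 0.181 FPKM. Both FIT genes overlap an antisense gene: Gm15932, at 0 in each library, and 2310001K24Rik, at 0.129 to 0.796 FPKM.

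Beyond the 10, 34 other genes of droplets, triglyceride synthesis and triglyceride hydrolysis were listed, and 31 passed the filter. Limma called 0 of the 31, against 0.313% of all tested genes. The fitted log2 difference was positive for 12 and negative for 19, with a median of -0.10, against -0.0060 over all tested genes. At an unadjusted limma p under 0.05, 6 were lower and 2 higher, against 7.98% and 6.97% of all tested genes. Hsd17b13, a droplet enzyme of hepatocytes linked to fatty liver, measured 341, 344 and 268 FPKM (controls) against 163, 141 and 203 FPKM (knockouts) (log2 difference -0.91, limma adjusted p = 0.134). Its groups did not overlap, and without control replicate 3 it passed the limma threshold, with a log2 difference of -1.03. Acsl4, an acyl-CoA synthetase with a preference for arachidonate, measured 9.97, 8.96 and 17.8 FPKM (controls) against 21.9, 22.0 and 30.0 FPKM (knockouts) (1.00, limma adjusted p = 0.184). It too passed without control replicate 3, with a log2 difference of 1.28. Of the list, 3 were called in the authors' deposited table, Hsd17b13 and Ces1d lower and Acsl4 higher. Of all genes that table tested, 1.73% were called lower and 2.85% higher.

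Among the other enzymes of triglyceride synthesis and hydrolysis named here, mean differences had both signs, and none passed the test. Dgat2, which adds the last fatty acid, measured 200, 237 and 199 FPKM (controls) against 316, 231 and 337 FPKM (knockouts) (log2 difference 0.46, limma adjusted p = 0.330). Mogat1, which makes diglyceride, had means of 2.18 ± 0.771 (controls) against 0.681 ± 0.477 FPKM (knockouts; SD, n = 3 each), with no overlap and a limma adjusted p of 0.196. The endoplasmic reticulum hydrolases Ces1d (254 ± 54.2 and 124 ± 52.2 FPKM) and Aadac (531 ± 93.7 and 340.4 ± 54.7 FPKM; SD, n = 3 each) were lower in each knockout than in any control, with limma adjusted p of 0.211 and 0.247. Ces1d has close paralogs beside it, and the sources used here do not say how reads shared by them were counted. Acsl1, the main acyl-CoA synthetase of liver, was at 412 ± 53.5 and 386 ± 35.9 FPKM, and Aup1, a droplet protein of degradation at the endoplasmic reticulum, had a log2 difference of -0.30 (limma adjusted p = 0.834 and 0.491).

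Of 9 regulators known to act on droplet genes, limma called 0, against 0.313% of all tested genes. The fold change was positive for 6 and negative for 3, against 50.8% negative over all tested genes. Groups did not overlap for 3, Pparg, Nr1h3 and Creb3l3, all lower, against 11.6% of all tested genes. Pparg, the receptor that drives droplet genes in fat and fatty liver, measured 5.39, 2.81 and 4.61 FPKM (controls) against 0.455, 0.979 and 1.02 FPKM (knockouts). Each knockout was below each control (log2 difference -1.52, limma adjusted p = 0.0691); it was called lower in the authors' deposited table (q = 0.00121). Ppara, the fasting receptor, was at 27.5, 24.1 and 47.0 FPKM and at 34.2, 41.3 and 46.8 FPKM (0.35, limma adjusted p = 0.550). Creb3l3, a fasting transcription factor of the endoplasmic reticulum, had a log2 difference of -0.40 and Srebf1, which drives lipogenesis, of 0.72 (limma adjusted p = 0.343 and 0.462); the authors' deposited table called Srebf1 higher (q = 0.0256). For Nr1h3, Mlxipl and Foxo1 the differences were -0.23, 0.35 and 0.48.

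Of 18 fasting and PPAR target genes, 17 were tested, 12 with a negative fold change, against 50.8% of all tested genes. Limma called 2, both lower, against 0.144% of all tested genes. These were Cyp4a14, a fatty acid ω-hydroxylase, at 526 ± 55.1 and 114 ± 27.5 FPKM (log2 difference -2.22, limma adjusted p = 0.0170), and Acot1, an acyl-CoA thioesterase, at 61.9 ± 16.3 and 10.8 ± 4.27 FPKM (-2.45, limma adjusted p = 0.0358; SD, n = 3 each). Groups did not overlap for 8 genes of the list that were lower and 2 that were higher, against 11.6% and 11.3% of all tested genes. Besides the 2 called genes, the lower ones were Cyp4a10 (log2 difference -1.12, limma adjusted p = 0.0807), Fabp1, Acadm, Ehhadh, Fgf21 and Mogat1. In the other direction, Vnn1, a pantetheinase, measured 29.1, 25.8 and 30.7 FPKM (controls) against 61.1, 63.3 and 47.1 FPKM (knockouts), with no overlap (0.97, limma adjusted p = 0.0807). Cpt1a, which admits fatty acids to mitochondria, also had groups apart, with a log2 difference of 0.43 (limma adjusted p = 0.324). Of the list, 6 were called lower and 1, Vnn1, higher in the authors' deposited table, against 1.73% and 2.85% of the genes it tested. The calls of Cyp4a14 and Acot1 were lost when any 1 library other than control replicate 3 was left out. The median of the list was -0.53, against -0.33 for the 9 droplet members.

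**Figure D5:**
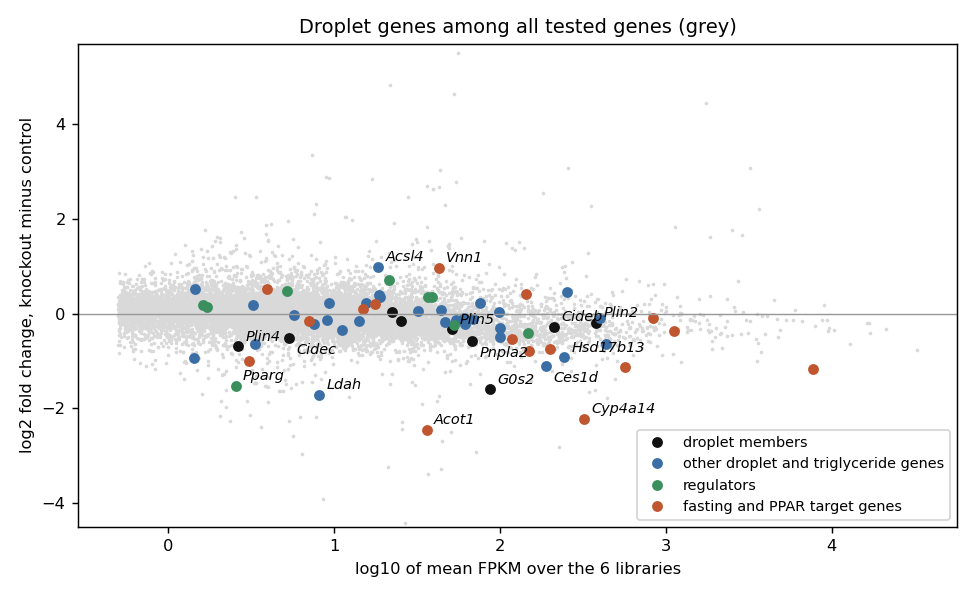
Log2 difference of double knockout minus control against the log10 of mean FPKM for all tested genes (grey) and the listed genes (colours). The droplet members (black) lie between -1.59 for G0s2 and 0.027 for Fitm2, while Cyp4a14 and Acot1, the 2 called genes of the PPAR list, lie at -2.22 and -2.45.

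The authors' deposited table called 0 of the 10 members, against 1.73% lower and 2.85% higher of 11844 genes it tested. By the unadjusted p of the authors' deposited table, 3 members, Plin4, Plin5 and Pnpla2, were lower at the 0.05 level, each with q = 0.182, against 5.9% of its tested genes. It ranked Plin4 and Plin5 above G0s2, whereas limma with all libraries ranked G0s2 first; both use the same 6 libraries.

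Likeness of pattern was described by Pearson's r of log2(FPKM + 1) over the 6 libraries, among 10664 tested genes, predicted genes and pseudogenes left out, for the member with the smallest p and the most abundant member. Closest to G0s2 were Zfp944 (0.99), Ugdh (0.98) and C9 (0.97), and closest to Plin2 were Ugt2b38, Lad1 and Mrgbp (0.99, 0.99 and 0.98). Among the tested members r ran from -0.34 for Pnpla2 with Fitm2 to 0.96 for Plin4 with Plin5. Cideb, Cidec and Pnpla2 correlated with each other at 0.86 to 0.88, Plin2 with Fitm2 at 0.89, and G0s2 with Plin5 at 0.09. These points share library and depth, and r over 6 libraries is given as a description.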

How the data were processed

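The authors deposited FPKM per gene and library for 3 control and 3 double knockout livers. They also deposited a table of group FPKM, p-values and q-values, per the file headers. Tools named in the submitters' processing notes are STAR 2.4.2a, Cuffdiff 2.2.1, Picard 1.119, Trimmomatic and bcl2fastq, with the build GRCm38 (mm10), with no role or order; the sources used here do not give the annotation, strand setting or treatment of multi-mapped reads. Libraries were grouped by title, and 0 columns of per-library values were left unmapped.

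A mean of 0.5 FPKM or more was required, and limma 3.58.1 in R 4.3.3, with its trend option, fitted log2(FPKM + 1), at an adjusted p of 0.05; this scale understates changes of low genes. The fit was tested on simulated data. Depth was read from the smallest FPKM steps. Positions are from GENCODE M21, where 48343 of 48699 identifiers were found, and promoters from RefSeq (GRCm38.p6). Limma p-values set a mean difference against the spread between 3 libraries per group, with a variance estimate that draws on all tested genes. Alternatives were pseudocounts of 0.1 and 0.25, no filter and 2 FPKM, quantile and median-ratio scaling, no trend, library weights, a replicate block and leaving out each library. All members, each called gene of the lists, and otherwise the 6 most abundant and the 3 with the smallest p are named, with Vnn1, Cpt1a, Lpin1 and Ldah added after their values were seen. Also added then were Cyp4a10, Fabp1, Acadm, Ehhadh, Fgf21, Fos and the named cholangiocyte markers. Members and lists were chosen with earlier results of these data known.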

Additional observations from a re-analysis of the deposited data

How the results depend on the processing

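Genes called over all tested genes numbered 20 higher and 17 lower, and depended on the library left out: between 0 and 154 higher and between 2 and 88 lower, the highest of both without control replicate 3. A pseudocount of 0.1 gave 13 higher; no filter gave 0 higher and 2 lower; library weights gave 326 higher and 237 lower. Members called numbered 0 higher under each alternative and 0 lower except with library weights (2) and without control replicate 3 (2; leave-out range 0 to 2). Other droplet and triglyceride genes called were 1 higher and 1 lower with library weights, and 0 to 1 in each direction when 1 library was left out. Regulators called were 1 lower with library weights. PPAR targets called lower, 2 with all libraries, were 0 with no filter, 1 after quantile normalization, 5 with library weights and 0 to 3 when 1 library was left out; 1 was called higher with library weights, and 0 to 1 in the leave-outs. The sign turned for Plin2 (0.071 after quantile normalization, leave-out range -0.36 to 0.078), Fitm1 (-0.35 to 0.032) and Fitm2 (-0.027 to 0.10). Among ratios it turned for Plin5 to Plin2 (leave-out range -0.60 to 0.27) and Fitm1 to Fitm2 (-0.37 to 0.027). Where 1 library was left out, fewer samples entered; otherwise the cause was not tested.

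Libraries share replicate numbers between the groups, but nothing in the labels pairs the animals. Same-numbered deviations correlated at 0.22, -0.08 and 0.30, and so few values cannot decide whether the numbers pair them. With the replicate block limma called 27 genes higher and 23 lower over all genes, and 0 members; of the controls, replicates 1 and 3 matched their own number best and replicate 2 did not.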

Other observations

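Lpin1 and Ldah, 2 other droplet genes chosen after their values were seen, varied widely within both groups. Lpin1, the phosphatidate phosphatase that makes diglyceride, measured 71.0, 80.5 and 6.47 FPKM (controls) against 46.2, 8.56 and 68.2 FPKM (knockouts). Ldah, a droplet-associated hydrolase, was listed at 19.6, 19.9 and 0 FPKM (controls) against 0.0802, 9.27 and 0.107 FPKM (knockouts). The groups overlapped for both (limma adjusted p = 0.956 and 0.570).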
